A study of Homo sapiens with 6 samples.

Results

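The Siglec receptors were examined in the transcriptome of FUJIOKA cells, an established human acute myeloid leukaemia line, after silencing of SPINK2, which encodes a Kazal-type serine protease inhibitor. The family was chosen by the rise of SIGLEC1 in these same libraries, and its 10 genes (SIGLEC1, CD22, CD33, SIGLEC5, SIGLEC7, SIGLEC9, SIGLEC10, SIGLEC11, SIGLEC14 and SIGLEC15) were then taken by name from the 63236 genes of the deposited table. The fold change of SIGLEC1 is therefore given as a description with no test. Of the 10 genes, 9 had at least 1 read in some library and 7 reached the mean of 5 normalised reads needed for the fit.

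The study compared 3 libraries of FUJIOKA cells carrying a scrambled, non-targeting shRNA (shNEG) with 3 libraries of cells carrying a SPINK2 shRNA (shSPINK2). All 6 came from cells stably transduced with the lentiviral Tet-pLKO-puro vector, in which doxycycline switches the hairpin on, so the controls share vector, hairpin expression and drug. The labels describe a pair of SPINK2 hairpins and the methods a single hairpin, and neither says which hairpin a library carries, whether the transduced cells were a pool or a clone, or how long doxycycline was given before RNA was taken. Messenger RNA was sequenced as 150-base read pairs, and nothing in the labels says that libraries of a group came from separate cultures. The p-values therefore reach no further than these libraries. They rest on the spread between them together with a variance that limma borrows from all genes fitted, so very small values depend on that borrowing. The deposited table holds a mean over the 6 libraries rather than a column for each. Whole reads per library were recovered from it, and the libraries are called a, b and c within a group, letters that do not stand for the replicate numbers of the labels.

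Siglecs are sialic-acid-binding lectins of the immunoglobulin superfamily, carried mainly by leukocytes, where they read the sialylated glycans of their own cell or of its neighbours. Most members related to CD33, and CD22 itself, carry cytoplasmic tyrosine motifs (ITIMs) that recruit the phosphatases SHP-1 and SHP-2 and dampen activation, while SIGLEC14, SIGLEC15 and SIGLEC16 pair with the adaptor DAP12, encoded by TYROBP, and can activate. SIGLEC1, also called sialoadhesin or CD169, is the macrophage member with a long extracellular region and no ITIM. CD33 is the myeloid member used in the phenotyping of acute myeloid leukaemia and as an antibody target in its treatment.

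Pairs of Siglec genes share sequence that a single 150-base read may not place, which bears on 3 of the 10 members. An exon of each pair is shown first for that reason. In the GENCODE 44 annotation of GRCh38, the coding SIGLEC5 and SIGLEC14 genes, neighbours on the minus strand of chromosome 19, hold an identical coding exon of 384 bases. Its first 150 bases, 5′ to 3′ on the transcribed strand, lie at chr19:51630067-51630216 in SIGLEC5 and at chr19:51646491-51646640 in SIGLEC14.
SIGLEC5: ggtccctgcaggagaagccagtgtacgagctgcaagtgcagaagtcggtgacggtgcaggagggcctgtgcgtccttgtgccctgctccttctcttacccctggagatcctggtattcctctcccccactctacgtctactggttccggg
SIGLEC14: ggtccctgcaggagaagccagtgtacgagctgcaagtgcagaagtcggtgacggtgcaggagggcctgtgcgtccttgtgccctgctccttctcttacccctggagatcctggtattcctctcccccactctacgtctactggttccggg
SIGLEC11 and its DAP12-coupled relative SIGLEC16 lie on opposite strands of chromosome 19 and have a coding exon of 285 bases that differs at 1 base, an identity of 99.6%. The first 150 bases, with the differing base in capitals, lie at chr19:49960272-49960421 on the minus strand in SIGLEC11 and at chr19:49970323-49970472 on the plus strand in SIGLEC16. A read that covers the differing base can be placed by it, and a read that misses it may not be.
SIGLEC11: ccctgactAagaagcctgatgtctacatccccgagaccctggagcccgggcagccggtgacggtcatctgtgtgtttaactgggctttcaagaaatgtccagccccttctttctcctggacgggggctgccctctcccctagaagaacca
SIGLEC16: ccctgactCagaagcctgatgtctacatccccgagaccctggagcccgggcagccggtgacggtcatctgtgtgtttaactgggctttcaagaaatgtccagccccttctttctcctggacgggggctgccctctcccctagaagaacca
Over whole canonical transcripts, 19.7% of the 150-base windows of coding SIGLEC5 and 11.2% of those of SIGLEC14 occurred in another family gene, against 13.7% for SIGLEC11 and 11.1% for SIGLEC16. For SIGLEC1, CD22, CD33, SIGLEC7, SIGLEC9, SIGLEC10 and SIGLEC15 the count of such windows was 0, so they shared no read-length stretch with the other family transcripts. The reads were paired, so a mate outside a shared stretch can also place a read. How reads shared by 2 genes were counted is not given in the sources used here, and the values of SIGLEC5, SIGLEC11, SIGLEC14 and SIGLEC16 are uncertain to that extent.

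The targeted gene was checked first. SPINK2 (ENSG00000128040.10, chr4:56809860-56821742) had 56, 63 and 53 reads in shNEG a, b and c and 7, 9 and 6 in shSPINK2 a, b and c. Divided by the size factors, the means were 57.3 ± 5.11 and 7.26 ± 1.47 (SD, n = 3 each), a log2 fold change of -2.91 ± 0.27 (SE; adjusted p = 7.7e-12, limma). The size factors of the 6 libraries differed by at most 4.85%, and log2 values correlated across the 10678 genes with a mean of at least 100 at 0.9965 to 0.9982 within the groups and at 0.9632 to 0.9662 between them, so no library stood apart from its group. Of the 17323 genes fitted, 4363 were higher and 4583 lower in shSPINK2 at an adjusted p below 0.05. A permutation test on 3 against 3 libraries cannot go below a two-sided p of 0.1, so the p-values given are those of the limma fit across all genes, adjusted over all of them by the Benjamini-Hochberg method. In bulk RNA, fewer cells making a transcript and less transcript per cell cannot be told apart.

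SIGLEC1, the gene that led to the family, lies at chr20:3686970-3712600 on the minus strand, away from the Siglec cluster of chromosome 19. It (ENSG00000088827.12) had 71, 60 and 73 reads in shNEG and 286, 181 and 208 in shSPINK2. Every shSPINK2 library lay above every shNEG library, and the highest of the 6, shSPINK2 a, was the main source of the spread within its group. Normalised reads averaged 67.9 ± 7.01 and 222 ± 49.7 (SD, n = 3 each), a log2 fold change of 1.69 ± 0.13 (SE), or 3.22-fold. It ranked 60 by log2 fold change among the 17323 genes fitted, ahead of the other Siglecs fitted. The 95% intervals of the scarcer SIGLEC7 (0.60 to 1.98) and SIGLEC6 (0.16 to 2.09) cover its value. Its place before any other Siglec was not tested, since the family was chosen by this same rise. Without shSPINK2 a the log2 fold change of SIGLEC1 was 1.52, the lowest of the 6 values obtained by leaving out each library in turn, and the highest was 1.83.

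Among the 7 members fitted, 5 were called higher in shSPINK2 (SIGLEC1, CD33, SIGLEC7, SIGLEC9 and SIGLEC11) and 2 were not called (SIGLEC5 and SIGLEC10), while 0 were called lower by limma, with 0 lower also at an unadjusted p below 0.05 and 0 with voom weights. Over all genes fitted, 25.2% were called higher and 26.5% lower. The same 5 members had every shSPINK2 library above every shNEG library, an arrangement found for 27.8% of all genes fitted. SIGLEC1 and SIGLEC7 were also past a log2 fold change of 1, against 2.34% of all genes fitted. The median log2 fold change of the 7 members was 0.36, beside 0.004 for all genes fitted. SIGLEC1 itself is in the counts of higher members and in the median. Apart from it, SIGLEC7 alone among the members fitted passed a log2 fold change of 1. Since the family was selected on SIGLEC1 in this comparison and members under the minimum mean are left out, these counts describe the family and are no test of it.

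CD33 held most of the reads of the 10 members. CD33 (ENSG00000105383.14, chr19:51225064-51243860, plus strand) had 7019, 6842 and 6621 reads in shNEG and 9110, 8726 and 8607 in shSPINK2. The means were 6822 ± 186 and 8732 ± 86.5 normalised reads (SD, n = 3 each), so the groups did not overlap and each was tight. CD33 rose by 0.36 ± 0.04 (SE) on the log2 scale, or 1.28-fold (adjusted p = 2.4e-09). It held 76.8% of the normalised reads of the 10 members in shNEG and 78.9% in shSPINK2.

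SIGLEC9 and SIGLEC7, inhibitory receptors best known from monocytes, neutrophils and natural killer cells, are neighbours at chr19:51124906-51136651 and chr19:51142299-51153526. SIGLEC9 (ENSG00000129450.8) had 35, 29 and 45 reads in shNEG and 83, 74 and 60 in shSPINK2. Its log2 fold change was 0.98 ± 0.19 (SE; adjusted p = 2.68e-05). SIGLEC7 (ENSG00000168995.13) was scarcer, with 9, 9 and 6 reads in shNEG and 17, 20 and 24 in shSPINK2. In both genes the lowest shSPINK2 library exceeded the highest shNEG library. The log2 fold change of SIGLEC7 was 1.29 ± 0.34 (SE; adjusted p = 0.00146), with a 95% interval of 0.60 to 1.98 that reflects the low counts.

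SIGLEC10, the receptor for CD24 and another ITIM carrier (ENSG00000142512.14, chr19:51410020-51417803, minus strand), was second to CD33 among the 10 members and had overlapping groups. It had 1675, 1648 and 1564 reads in shNEG and 1653, 1601 and 1659 in shSPINK2. The log2 difference was -0.004 ± 0.05 (SE; adjusted p = 0.957), with a 95% interval of -0.10 to 0.10. Its share of the normalised reads of the 10 members was 18.3% in shNEG and 14.7% in shSPINK2.

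SIGLEC11, a receptor described on tissue macrophages and microglia (ENSG00000161640.15, chr19:49948985-49961172, minus strand), had 289, 275 and 250 reads in shNEG and 333, 302 and 351 in shSPINK2. The normalised means were 271 ± 19.2 and 326 ± 28.7 (SD, n = 3 each), with a log2 fold change of 0.26 ± 0.08 (SE; adjusted p = 0.00869). The call did not hold without shNEG c (adjusted p = 0.0738) or without shSPINK2 c (adjusted p = 0.0794), nor with a variance prior that had no trend (adjusted p = 0.0626).

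The row named SIGLEC5 in the deposited table (ENSG00000105501.12) is in GENCODE 44 a long non-coding RNA at chr19:51630101-51645545 on the minus strand. Its span overlaps both SIGLEC14 and the coding SIGLEC5 gene, and the same 17.3% of its 150-base windows occur in both. The row had 59, 50 and 50 reads in shNEG and 59, 72 and 64 in shSPINK2. The groups overlapped, and the log2 difference was 0.28 ± 0.17 (SE; adjusted p = 0.164), with a 95% interval of -0.06 to 0.62. The identifier that GENCODE 44 gives the coding SIGLEC5 (ENSG00000268500.5, chr19:51610960-51630401) appears in the table as AC018755.2, with 3, 0 and 1 reads in shNEG and 0, 1 and 1 in shSPINK2. The annotation release behind the table is not given in the sources used here, so which SIGLEC5 transcripts the row covers is not known.

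The remaining members were at or near 0 in both groups and were not fitted. SIGLEC14, the DAP12-coupled partner of SIGLEC5 (ENSG00000254415.3, chr19:51639478-51646825), had 0 reads in all 6 libraries, a count that allows up to 3 reads in each. Its shared exon with SIGLEC5, printed above, is a stretch where reads could go uncounted. The same holds where its span overlaps the row named SIGLEC5 on the same strand, so its count of 0 may not be its level. CD22, the B cell Siglec (ENSG00000012124.16, chr19:35319261-35347361), had 0, 1 and 0 reads in shNEG and 0 in each shSPINK2 library. SIGLEC15 (ENSG00000197046.11), the DAP12-coupled member known from osteoclasts and tumour-associated macrophages, had 1, 2 and 1 reads in shNEG and 3, 0 and 1 in shSPINK2. A difference in these 3 genes was not detectable in these counts.

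Levels of different genes were compared as normalised reads per kilobase of GENCODE 44 exons, leaving out SIGLEC5, whose gene model is uncertain. In shNEG the order was CD33 at 1142 ± 31.1, SIGLEC10 at 444 ± 14.95, SIGLEC11 at 85.4 ± 6.06, SIGLEC9 at 14.3 ± 3.20, SIGLEC1 at 8.36 ± 0.86 and SIGLEC7 at 3.91 ± 0.84 (SD, n = 3 each). The libraries of each of these 6 genes lay apart from those of its neighbours in the order, and the closest pair was SIGLEC1, at most 8.99, below SIGLEC9, at least 11.4. Below them came SIGLEC15 at 0.39 ± 0.17 and CD22, which rest on 4 reads and 1 read over the 3 shNEG libraries and cannot be ordered, and SIGLEC14 at 0.

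In shSPINK2 the levels per kilobase were 1461 ± 14.5 for CD33, 443 ± 14.4 for SIGLEC10, 103 ± 9.04 for SIGLEC11, 28.1 ± 3.88 for SIGLEC9, 27.4 ± 6.12 for SIGLEC1 and 9.89 ± 1.94 for SIGLEC7. SIGLEC1 and SIGLEC9 then overlapped, at 22.1 to 34.1 and 24.0 to 31.6, and did not differ beyond their spread. With coding length in place of exon length SIGLEC1 came first of these 2, at 42.5 against 40.1. In both groups CD33 was the most abundant of the 9 members compared, and SIGLEC1 stayed far below it.

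**Figure D1:**
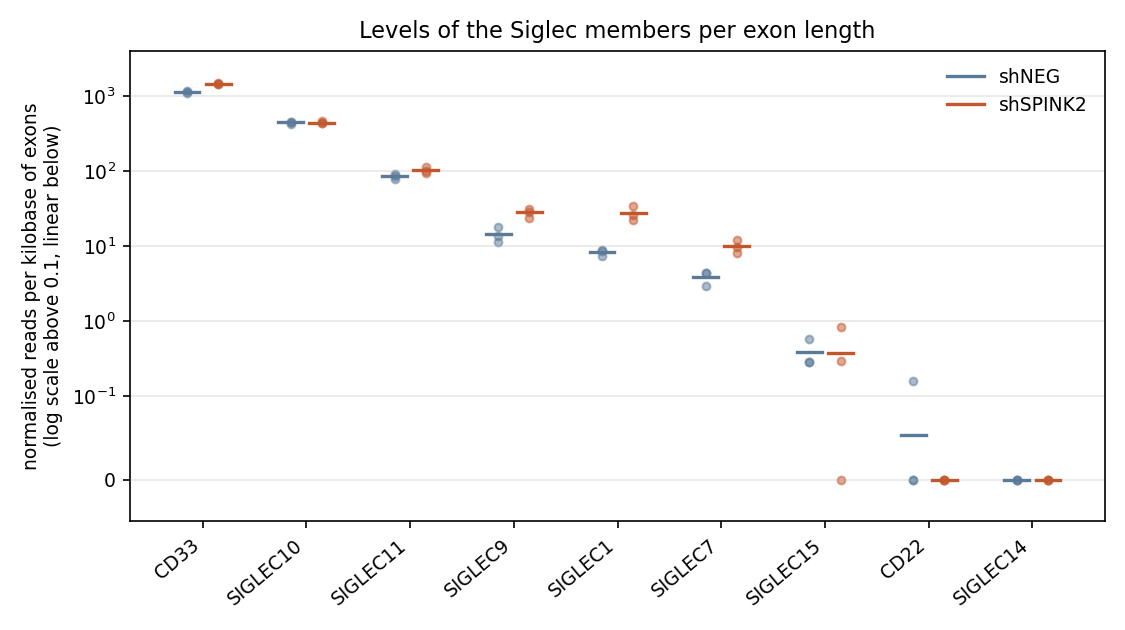
Normalised reads per kilobase of exons (y axis, log scale above 0.1 and linear below) for 9 Siglec members in order of their shNEG level, with a point per library and a line at the mean of the 3 shNEG (blue) and the 3 shSPINK2 (orange) libraries. CD33, at 1142 and 1461, is the highest in both groups, and SIGLEC1 moves from 8.36 to 27.4, where it overlaps SIGLEC9.

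The rest of the family was read in the same way. SIGLEC12, a CD33-related gene whose human protein has lost the arginine needed to bind sialic acid, had 1063, 1022 and 978 reads in shNEG and 1475, 1558 and 1411 in shSPINK2. It rose by 0.52 ± 0.05 (SE) on the log2 scale (adjusted p = 8.65e-11). SIGLEC16, the near copy of SIGLEC11, had 425, 422 and 436 reads in shNEG and 516, 477 and 435 in shSPINK2, and was not called at a log2 difference of 0.14 ± 0.07 (SE; adjusted p = 0.0965). Leaving out shSPINK2 c, its lowest shSPINK2 library, brought it below the threshold (adjusted p = 0.0431).

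SIGLEC6 had 8, 3 and 3 reads in shNEG and 9, 15 and 7 in shSPINK2, ranges that overlap. Its log2 fold change of 1.12 ± 0.48 (SE; adjusted p = 0.0468) lost its call without shNEG b, shNEG c, shSPINK2 a or shSPINK2 b, with adjusted p from 0.0701 to 0.226 in those fits. With a shNEG mean of 4.66 it reached the minimum of 5 only through shSPINK2, at 10.2, so its call depends on the group in which it is higher. SIGLEC8, the eosinophil and mast cell member, had 2, 3 and 7 reads in shNEG and 1, 2 and 7 in shSPINK2 and was under the minimum mean. MAG, the member of myelinating glia, had 0 reads in every library.

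**Figure D2:**
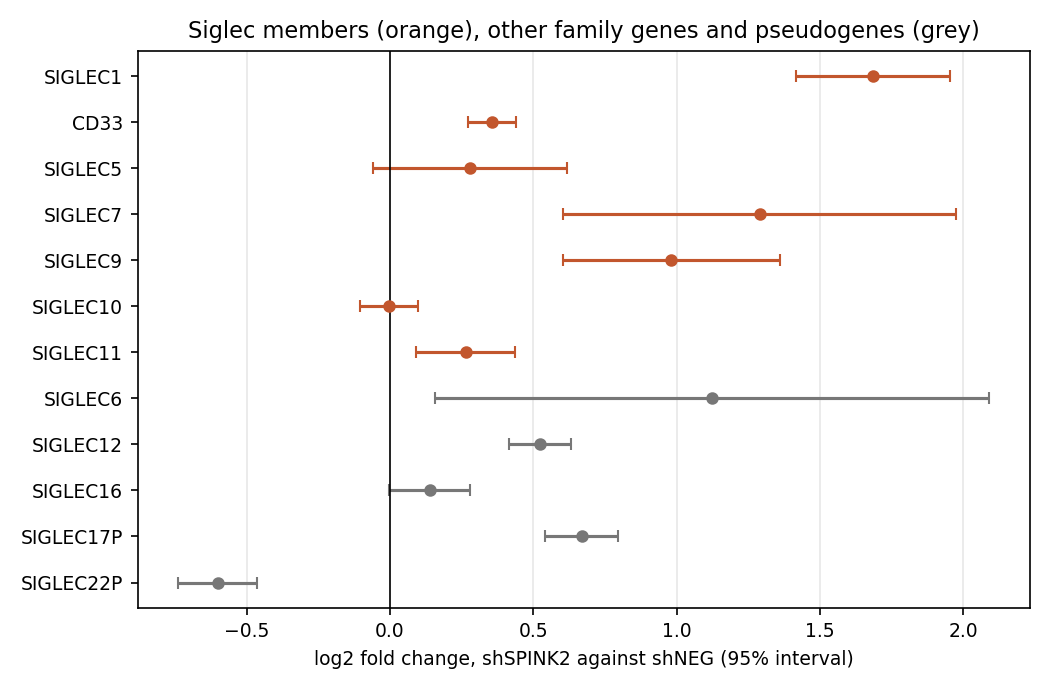
Log2 fold change of shSPINK2 against shNEG (x axis) with its 95% interval for the 7 Siglec members fitted (orange) and for 3 other Siglec genes and 2 Siglec pseudogenes (grey). SIGLEC1 lies at 1.69, SIGLEC10 at -0.004, and SIGLEC22P, at -0.60, is alone among these 12 in having its interval below 0.

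On chromosome 19, 10 gene entries, counting SIGLEC5 and AC018755.2 separately, lie with 2 of the family's pseudogenes in a stretch of 522 kilobases. Their fold changes were not uniform along it. In order of coordinate, SIGLEC9 was at 0.98, SIGLEC7 at 1.29 and the pseudogene SIGLEC17P at 0.67 on the log2 scale, then the pseudogene SIGLEC22P at -0.60, CD33 at 0.36, SIGLEC10 at -0.004, SIGLEC12 at 0.52, SIGLEC6 at 1.12 and SIGLEC5 at 0.28, with SIGLEC8, AC018755.2 and SIGLEC14 too low to fit. The pseudogenes were picked out after their values were seen. SIGLEC22P, which lies just before CD33 in this order and on the same strand, had 606, 622 and 567 reads in shNEG and 415, 380 and 397 in shSPINK2, the reverse of CD33, and fell by 0.60 on the log2 scale (SE 0.07; adjusted p = 1.09e-09). SIGLEC17P had 568, 524 and 548 reads in shNEG and 926, 919 and 791 in shSPINK2 (log2 fold change 0.67 ± 0.06; adjusted p = 1.14e-11). In GENCODE 44, 86.3% of the 150-base windows of this SIGLEC17P row occur in another gene model of the same name, so its count is uncertain too.

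**Figure D3:**
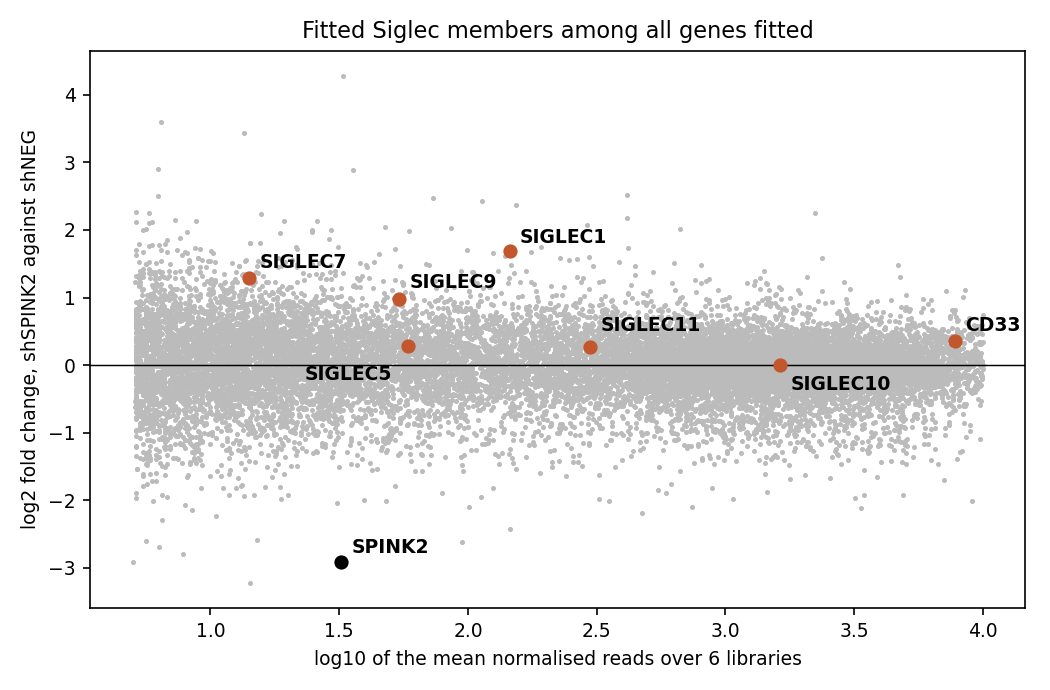
Log2 fold change of shSPINK2 against shNEG (y axis) against the log10 of the mean normalised reads over the 6 libraries (x axis) for the 17323 genes fitted (grey), with the 7 Siglec members fitted (orange) and SPINK2 (black) marked. SIGLEC1, at 1.69, is at the upper edge of genes of its abundance, CD33 and SIGLEC10 are among the abundant genes with small changes, and SPINK2 lies at -2.91.

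The genes whose pattern over the 6 libraries was most like that of SIGLEC1 were found by the Euclidean distance between gene-centred log2 values among the 11808 fitted genes with a mean of at least 50. They were IFIT1 (distance 0.32), FKBP10 (0.43), PLD2 (0.45), SEMA4A (0.47) and OASL (0.52). IFIT1, an interferon-induced RNA-binding protein, had 153, 106 and 143 reads in shNEG and 459, 340 and 398 in shSPINK2, with shSPINK2 a the highest of the 6 libraries as for SIGLEC1. OASL, an interferon-induced protein related to the oligoadenylate synthetases, had 95, 75 and 81 and then 253, 169 and 241. FKBP10, a collagen prolyl isomerase, PLD2, a phospholipase D, and SEMA4A, a semaphorin, had log2 fold changes of 1.74, 1.61 and 1.73.

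Downstream of the receptors, 16 genes of Siglec signalling were listed and 11 fitted, of which 5 were called higher, 4 lower and 2 in neither direction, with a median log2 fold change of -0.04. The adaptor genes used by activating Siglecs and related receptors rose. TYROBP, which encodes DAP12, had 929, 883 and 858 reads in shNEG and 1575, 1529 and 1703 in shSPINK2 (log2 fold change 0.84 ± 0.06; adjusted p = 1.1e-15). HCST, which encodes the adaptor DAP10, rose by 0.83 ± 0.05 on the log2 scale (adjusted p = 6.87e-16), and the Src-family kinase FGR by 1.01 ± 0.06 (adjusted p = 1.17e-17).

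Among the called genes of this list, those that fell most were SRC, by 1.098 on the log2 scale (adjusted p = 1.44e-05), the ubiquitin ligase CBL, by 0.35 (adjusted p = 2.13e-08), and FYN, by 0.28 (adjusted p = 4.18e-06). INPP5D, which encodes the lipid phosphatase SHIP1, was among the 5 called higher, at 0.11, and lost its call without shNEG a, b or c or shSPINK2 c (adjusted p 0.0529 to 0.277). LCK, the T cell kinase, was at 0 in all libraries. PTPN6 and PTPN11, the SHP-1 and SHP-2 genes, and the signalling genes SYK and GRB2 were not fitted, because the deposited means did not resolve to a single set of whole reads or exceeded 10000. Of the Siglecs that pair with the TYROBP product, SIGLEC14 and SIGLEC15 were at or near 0 in these same libraries and SIGLEC16 was not called.

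Genes that make and remove sialic acid moved in both directions. Of 7 genes listed for sialic acid synthesis and activation, which include the degrading enzyme NPL, 5 were lower, 1 was higher and 1 was not called (median log2 fold change -0.19). SLC35A1, the Golgi transporter of CMP-sialic acid, had 575, 635 and 709 reads in shNEG and 320, 334 and 291 in shSPINK2, and fell by 1.03 on the log2 scale (adjusted p = 1.45e-14). NPL, which cleaves free sialic acid, fell by 0.50 (adjusted p = 3.56e-08) and NANP, the phosphatase of the synthesis pathway, by 0.26 (adjusted p = 0.0211). The call of NANP was lost without shNEG a, shNEG c or shSPINK2 c (adjusted p 0.0563 to 0.106), and that of NANS, the sialic acid synthase, without shNEG a, shNEG b, shSPINK2 a or shSPINK2 b (adjusted p 0.0532 to 0.179). The gene that was higher was CMAHP, the human pseudogene of the CMP-sialic acid hydroxylase, at 0.37 (adjusted p = 1.7e-05).

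Of 20 sialyltransferase genes 14 were fitted, and 6 were higher, 3 lower and 5 not called (median 0.07). The largest called rises were those of ST8SIA6, at 1.30 (adjusted p = 0.00121), ST8SIA5, at 0.91 (adjusted p = 0.0392), and ST6GALNAC4, at 0.48 (adjusted p = 1.3e-08). ST8SIA5 lost its call without shNEG a, shSPINK2 b or shSPINK2 c (adjusted p 0.0508 to 0.210). ST6GAL1, the enzyme behind the α2,6-linked ligands that CD22 prefers, fell by 0.30 (adjusted p = 1.07e-05), ST3GAL2 by 0.18 (adjusted p = 0.00187) and ST3GAL4 by 0.16 (adjusted p = 0.00511). ST6GAL2, ST8SIA2 and ST8SIA3 were at 0.

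Among 5 sialidase genes, counting CTSA, which encodes the lysosomal protective protein of NEU1, 3 were fitted and all were called. NEU1, the lysosomal sialidase, had 2026, 1924 and 1960 reads in shNEG and 3896, 3960 and 3909 in shSPINK2, a log2 fold change of 0.98 ± 0.05 (SE; adjusted p = 2e-20). CTSA rose by 0.53 ± 0.04 (adjusted p = 3.62e-13), while NEU3, the sialidase of the plasma membrane, fell by 0.26 (adjusted p = 2.27e-05). NEU2 was at 0 and NEU4 had at most 2 reads in a library.

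Of 8 genes of sialylated proteins described as Siglec ligands, 4 were fitted, 3 were higher and 1 was not called (median 0.81). The most abundant of the 8 are not in that median. SPN and CD44, at means of 27673 and 12990 over the 6 libraries, were above the 10000 searched. PTPRC, at 9179, did not resolve to a single set of whole reads. LGALS3BP, a secreted glycoprotein bound by several CD33-related Siglecs, had 320, 284 and 325 reads in shNEG and 703, 593 and 667 in shSPINK2 (log2 fold change 1.07 ± 0.07; adjusted p = 3.53e-15). CD24, the ligand of SIGLEC10, had 669, 640 and 696 reads in shNEG and 1322, 1357 and 1304 in shSPINK2 (0.98 ± 0.06; adjusted p = 9.23e-18), beside the SIGLEC10 values above, whose groups overlapped. SELPLG rose by 0.65 ± 0.05 (adjusted p = 2.81e-15). These lists, like the members, were drawn up with earlier results of these libraries known, and with 25.2% of all genes higher and 26.5% lower, their counts describe the pathway and set nothing apart from other genes.

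**Figure D4:**
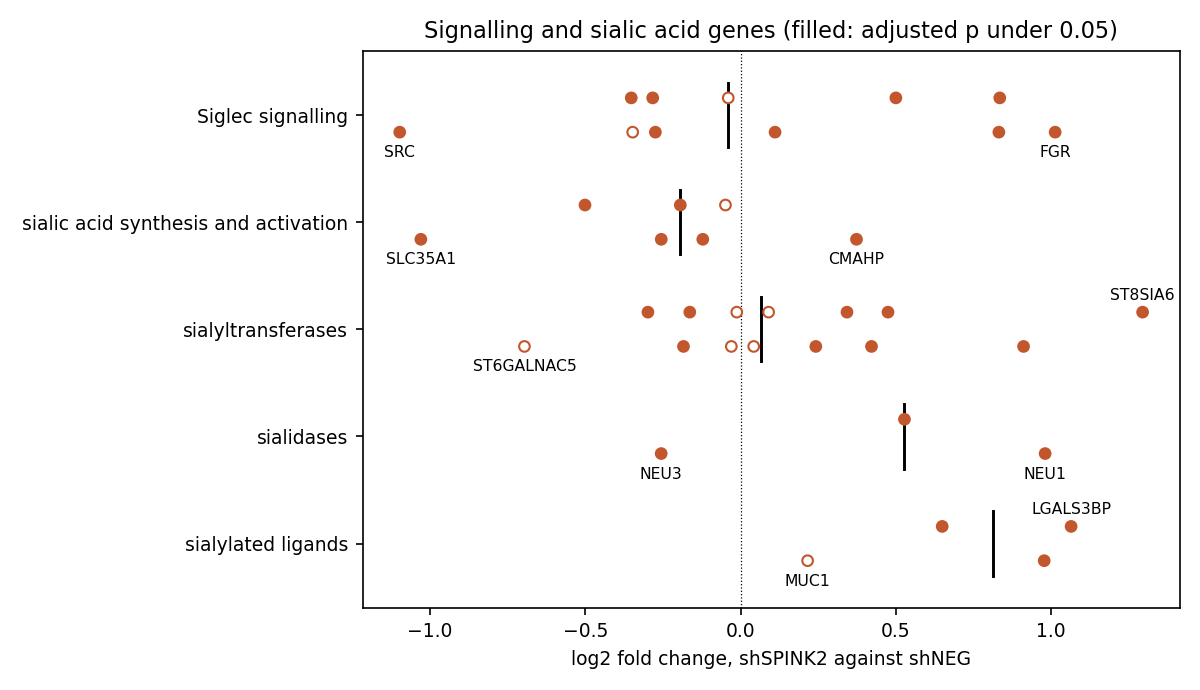
Log2 fold change of shSPINK2 against shNEG (x axis) for the fitted genes of 5 lists, with filled points for an adjusted p below 0.05, a black line at each list's median and the lowest and highest gene of each list named. The medians run from -0.19 for sialic acid synthesis and activation to 0.81 for sialylated ligands. Genes near or beyond a log2 change of 1 include SRC (-1.10), SLC35A1 (-1.03), CD24 (0.98), NEU1 (0.98), FGR (1.01), LGALS3BP (1.07) and ST8SIA6 (1.30).

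Markers of the cells in which each Siglec is best known were read beside the members. The line carried its myeloid label, with mean normalised reads over the 6 libraries of 44097 for LYZ, 32858 for CEBPA and 10673 for SPI1, while CD34 averaged 19.6 and KIT 0.67. Of 9 myeloid blast genes 4 were fitted: ANPEP was higher at 0.82 (adjusted p = 1.89e-18), CD34 fell by 0.86 (adjusted p = 0.0116), MPO fell by 0.40 (adjusted p = 1.01e-08) and CD38 was not called. CD34 lost its call without shNEG a (adjusted p = 0.0838) or shSPINK2 c (adjusted p = 0.0504). The summed level of the list, over its genes with recovered reads, was 9544 to 10250 in shNEG and 13144 to 13770 in shSPINK2. ANPEP, at 5489 and 9696 normalised reads, carried that rise, and LYZ, CEBPA, SPI1 and PTPRC are not in the sum.

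Macrophage genes, the setting in which SIGLEC1 is known, were called in 3 of 8 fitted from 13 listed, all of them higher, beside 25.2% of all genes fitted, and their summed level was 5329 to 5685 normalised reads in shNEG and 6941 to 7280 in shSPINK2. VSIG4 had a log2 fold change of 0.79 (adjusted p = 1.07e-16), ADGRE1 of 0.28 (adjusted p = 0.000588) and CSF1R of 0.22 (adjusted p = 5.84e-05). The list held both abundant and scarce genes. CSF1R, VSIG4 and ADGRE1 averaged 3345, 1366 and 510 normalised reads in shNEG, and MERTK, at 175 there and 155 in shSPINK2, was not called. CD68, with 8, 6 and 4 reads in shNEG and 7, 3 and 14 in shSPINK2, was not called either (adjusted p = 0.775). The same held for MSR1 (adjusted p = 0.545) and MARCO (adjusted p = 0.377). At the low end were C1QC at 0, C1QA, C1QB and MRC1 at no more than 3 reads in any library, CD14 at 8, 2 and 2 reads in shNEG and 2, 0 and 3 in shSPINK2, and CD163 at 12, 10 and 7 and then 15, 15 and 18 (adjusted p = 0.0804). The part of these genes in the rise of SIGLEC1 was not tested.

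Marker lists for the cell types of the other members were uneven, with genes at 0 beside genes with many reads. For B cells, where CD22 is known, BLK was at 0, MS4A1 had at most 1 read and PAX5 at most 1, CD79A, with 143 to 251 reads in a library, was higher at 0.58 (adjusted p = 1.19e-05) and FCRL1 lower at -1.37 (adjusted p = 3.76e-09), and the summed level of the list was 252 to 291 in shNEG and 251 to 292 in shSPINK2. For osteoclasts, where SIGLEC15 is known, 0 of 3 fitted genes were called by limma, with 0 at an unadjusted p below 0.05. With voom weights 0 were called, and 1 was lower at an unadjusted p below 0.05. OCSTAMP had 8, 5 and 9 reads in shNEG and 1, 3 and 8 in shSPINK2 (log2 fold change -1.11; adjusted p = 0.104, limma). CALCR was at 0 and ACP5 had at most 3 reads. CTSK, at 112 to 159 reads in a library, supplied most of a sum that was 140 to 158 in shNEG and 126 to 160 in shSPINK2.

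For eosinophils, basophils and mast cells, where SIGLEC8 and SIGLEC6 are known, MS4A2, at 115 normalised reads in shNEG, fell by 0.82 (adjusted p = 1.22e-05) and CPA3 by 0.94 (adjusted p = 3.85e-05), EPX was not called, TPSAB1 was at 0, and the sum was 212 to 268 in shNEG and 150 to 154 in shSPINK2. For T and natural killer cells, where SIGLEC7 is known, KLRD1 and NCAM1 were at 0 and CD3E had at most 2 reads. CD2, not fitted, had 6, 7 and 7 reads in shNEG and 1, 3 and 1 in shSPINK2. Of the 2 genes fitted, GNLY was not called (log2 fold change 0.12; adjusted p = 0.418). The other, NKG7, had 4195, 4197 and 4143 reads in shNEG and 6514, 6618 and 5830 in shSPINK2 (log2 fold change 0.58; adjusted p = 4.08e-14). NKG7 supplied most of a sum of 4290 to 4358 in shNEG and 6059 to 6725 in shSPINK2.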

How the data were processed

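The members and gene lists were chosen with earlier results of these data known. RNA-seq reads of 6 FUJIOKA libraries were aligned to hg38 with STAR 2.7.11, counted with featureCounts and compared with DESeq2 1.40.0 by the authors, versions and build being those of the submitters' processing notes; the strand setting and annotation release are not given in the sources used here. The deposited signal values are the authors' means of size-factor-normalised counts over the 6 libraries. The deposited log2 columns hold the authors' own fold change and its standard error for shSPINK2 against shNEG; together with p-values they are the study's comparison, and none of them is printed or set beside the values here.

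Because the columns carry 15 significant digits, the mean and the log2 columns of a gene together fix the whole reads of each library. A lattice search (Python, numba 0.67.0) solved for 6 size factors, 3 per group, and for the reads. A gene was accepted only where a single set of whole numbers met its mean and, within a tolerance, its fold change. The standard error entered only through the variance used for that fold change. Where a group had almost no reads, the fold change was not checked. Which 3 libraries are shSPINK2 follows from the stated direction of the comparison. Of the 17443 genes with a mean of 5 to 10000, 99.3% had 1 solution. The 666 genes above 10000 were not searched. The means sum to 38425214 reads per library, and recovered genes hold 55.8% of that sum.

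The recovered reads were divided by size factor, and log2 of that value plus 0.5 was fitted with limma 3.58.1 (R 4.3.3; lmFit, eBayes with a variance trend) for 17323 genes with a mean of at least 5, shSPINK2 against shNEG, Benjamini-Hochberg adjusted over all of them. A fold change on this scale understates changes of low genes. Both steps were tested on simulated data. Lengths, positions and sequences are from GENCODE 44 on GRCh38, matched by gene identifier without version. Named are SPINK2, the members, the rest of the family, up to 3 called genes with the largest rise and fall in each list, list genes at 0 and the 5 genes nearest SIGLEC1; other genes were named after their values were seen. Of the B cell markers listed, 1 is not reported here. Alternatives changed the pseudocount, the minimum mean, the variance trend, weights and centring, and left out each library.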

Additional observations from a re-analysis of the deposited data

How the results depend on the processing

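No paired analysis was possible because the recovered libraries carry no replicate number. Of the members, 5 were called higher and 0 lower with a pseudocount of 2, no minimum mean, voom weights or median centring, and 4 higher and 0 lower with a minimum mean of 20, which drops SIGLEC7, or with no variance trend, which loses SIGLEC11. Leaving out each library gave 4 to 5 members higher, 3928 to 4186 genes higher and 4106 to 4520 lower over all genes. Every setting kept the direction of each called Siglec and of SPINK2, whose log2 fold change ran from -3.06 to -2.80 as libraries were left out. SIGLEC6, called at an adjusted p of 0.0468, was not called with no minimum mean (0.135) or no variance trend (0.101). Other calls held with no variance trend, at much larger limma adjusted p. These were 0.00202 for CD33, 0.0109 for SIGLEC9, 0.00623 for SIGLEC7, 0.00151 for SIGLEC12 and 0.000253 for SPINK2. With a minimum mean of 20, genes higher by over 1 on the log2 scale numbered 201 instead of 405, since low genes are left out, and 1 gene in place of 2 in the rest of the family was called higher, since SIGLEC6 is dropped. Asking also for an absolute log2 fold change over 1 left 1 gene higher in the rest of the family, 1 higher and 1 lower in Siglec signalling, 0 higher and 1 lower in sialic acid synthesis and activation, 1 higher and 0 lower among sialyltransferases, 0 higher and 0 lower among sialidases, and 1 higher among sialylated ligands. Levels per kilobase were higher with coding length, which is shorter than exon length, CD33 most of all (5728 against 1142 in shNEG). Depth limits CD22, SIGLEC15 and SIGLEC8, at a few reads or none. SIGLEC14, at 0, is limited also by the sequence and span it shares with other entries.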
